A study of Mus musculus with 8 samples.

Results

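The genes described here are those whose proteins build the cornified envelope and that lie together in the epidermal differentiation complex of mouse chromosome 3. They were chosen by name: protein-coding genes of the numbered Sprr and Lce families, together with Flg, Flg2, Hrnr, Rptn, Tchh, Tchhl1, Crnn, Ivl and Lor. The rule found 46 genes among the 56748 in the count table. They fall into 16 small proline-rich (SPRR) genes, 21 late cornified envelope (LCE) genes, 7 genes of the S100-fused type, and involucrin (Ivl) with loricrin (Lor). In the mm39 assembly all of them lie between positions 91987578 and 93379287 of chromosome 3. That stretch of 1392 kb holds 57 protein-coding genes in the table, so the members make up most of it.

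The study compared whole skin of male mice that carried 2 copies of an Npy allele named tet (strain B6;129S4-Npytm2Rpa/J, NPY tet/tet) with whole skin of their wildtype siblings (NPY +/+, written WT here). All mice were 35 weeks old and no treatment was given to either group. Npy encodes neuropeptide Y, a peptide transmitter of sympathetic nerves, and the study's title describes the model as overexpression. RNA was sequenced from 5 WT and 3 NPY tet/tet mice, 1 library per mouse, and the libraries are called WT 1 to WT 5 and NPY-tet 1 to NPY-tet 3. The labels name no promoter or cell type for the allele, and whole skin holds epidermis, hair follicles, dermis, fat and muscle. In such bulk RNA, fewer cells of a type and less RNA per cell cannot be told apart.

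The cornified envelope is the protein shell that replaces the cell membrane of a keratinocyte as it dies to form the outermost layer of the skin. Transglutaminases first cross-link involucrin and related proteins under the membrane, and loricrin, SPRR and LCE proteins are then added to the shell. The S100-fused proteins (filaggrin, filaggrin 2, hornerin, repetin, cornulin, trichohyalin and its relative) carry a calcium-binding head and long repeats. They bind keratin filaments or are built into the envelope, and trichohyalin does this mainly in the inner root sheath and medulla of the growing hair.

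The libraries held between 31370433 and 47495565 counts. Npy itself had 5 to 15 counts in the WT libraries and 10394 to 11864 in the NPY tet/tet libraries, a log2 fold change of 10.37 (adjusted p = 3.60e-09, edgeR quasi-likelihood test with Benjamini-Hochberg adjustment over 18495 genes). The libraries stood apart in a way that crosses the genotypes: counts on ribosomal RNA genes made up 6.54% to 8.13% of WT 1, WT 2, WT 3, WT 5 and NPY-tet 1, and 0.0398% to 0.0759% of WT 4, NPY-tet 2 and NPY-tet 3. These ribosomal RNA genes include the mitochondrial ones. The second set of libraries is called the rRNA-poor libraries below. The epidermal keratin Krt10 was abundant in every library, at 3420 to 7354 CPM (counts scaled to library size, with edgeR's TMM factors). The 6 keratins of the hair's inner root sheath differed widely between mice: their summed FPKM (fragments scaled to gene length and library size) ran from 0.829 to 2565 in WT and from 143 to 1421 in NPY tet/tet skin.

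Stretches of 8 promoters are shown as examples with and without the short motifs marked here. They do not stand for the groups of members described below. Each is the 120 bases just before the RefSeq gene start, written 5′ to 3′ along the gene's strand. Capitals mark matches to the AP-1 motif TGANTCA. They also mark the core promoter motif TATAAA, where the general transcription machinery can assemble. In GRCm38.p6 they are Ivl chr3:92573736-92573855 (minus strand), Lor chr3:92083143-92083262 (minus strand), Crnn chr3:93144669-93144788 (plus strand), Sprr1a chr3:92485882-92486001 (minus strand), Tchh chr3:93442210-93442329 (plus strand), Hrnr chr3:93319629-93319748 (plus strand), Lce1d chr3:92687211-92687330 (minus strand) and Lce1m chr3:93019062-93019181 (minus strand). These positions come from an older assembly than the mm39 positions given elsewhere.
Ivl: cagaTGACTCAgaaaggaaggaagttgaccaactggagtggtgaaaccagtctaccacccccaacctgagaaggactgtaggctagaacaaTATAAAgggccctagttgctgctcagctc
Lor: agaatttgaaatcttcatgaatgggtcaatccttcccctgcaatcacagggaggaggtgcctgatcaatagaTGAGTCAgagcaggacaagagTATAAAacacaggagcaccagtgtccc
Crnn: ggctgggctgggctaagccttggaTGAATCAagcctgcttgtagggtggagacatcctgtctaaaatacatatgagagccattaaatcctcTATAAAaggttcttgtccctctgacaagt
Sprr1a: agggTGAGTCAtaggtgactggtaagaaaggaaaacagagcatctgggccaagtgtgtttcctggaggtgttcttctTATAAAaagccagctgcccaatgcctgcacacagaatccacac
Tchh: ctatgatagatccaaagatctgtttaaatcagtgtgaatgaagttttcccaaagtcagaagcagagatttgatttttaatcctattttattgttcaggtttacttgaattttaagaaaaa
Hrnr: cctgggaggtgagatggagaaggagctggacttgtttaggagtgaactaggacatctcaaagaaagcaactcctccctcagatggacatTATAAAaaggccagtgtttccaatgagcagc
Lce1d: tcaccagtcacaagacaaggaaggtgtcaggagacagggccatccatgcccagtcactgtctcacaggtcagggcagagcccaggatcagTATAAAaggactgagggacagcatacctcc
Lce1m: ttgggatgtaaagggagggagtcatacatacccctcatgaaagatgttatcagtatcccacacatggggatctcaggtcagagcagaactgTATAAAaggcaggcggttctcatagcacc

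Promoters were found for 43 of the 46 members, and none for Lce1f, Sprr2g and Sprr2j-ps. Over the 250 bases before the start, on both strands, TGANTCA was found in 16 of the 43 (37.2%), against 6.87% of 27025 mouse promoters. TATAAA was found in 20 of the 43 (46.5%), against 12.97% of all promoters. The matches were unevenly spread: none of the 13 Lce1 promoters held TGANTCA and 2 of them (Lce1d and Lce1m) held TATAAA. Ivl, Lor, Crnn, Flg, Rptn, Sprr1a and Sprr1b held both. So did Sprr2b, Sprr2d, Sprr2e, Sprr2f, Sprr2h, Sprr2i and Sprr2k. The Tchh window held neither motif. Several Sprr2 promoters carry the AP-1 match at nearly the same distance from the start, and as copies of each other they do not count as separate cases. The same windows were also searched for the grainyhead-like motif AACCNGTT, the GATA motif AGATAA and the antioxidant response motif TGACNNNGC. These motifs were found in 2.33%, 11.6% and 16.3% of the 43, against 1.71%, 10.3% and 10.1% of all promoters. A match describes letters only and says nothing on whether a factor binds there.

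Loricrin, the main protein of the mature envelope, supplied the largest mean share of the members' RNA when levels were compared per gene length. Lor took on average 45.02% of the members' summed FPKM, with a range over libraries of 25.004% to 56.2%. In WT 5, its lowest share, Sprr1a stood above it at 675 against 598 FPKM. Lce1m followed with 17.2%, Sprr1a with 9.53%, Sprr4 with 5.35% and Tchh with 3.51%. Sprr4 has the shortest gene model of the 46, at 231 bases, which raises its FPKM for a given count. The very long filaggrin genes stood low on this scale, with 1.09% for Flg2, 0.189% for Hrnr and 0.0998% for Flg. The members' summed FPKM was 2029 ± 602 (SD, n = 5) in WT and 2256 ± 132 (SD, n = 3) in NPY tet/tet skin, and the groups overlapped.

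Of the 46 members, 30 passed the filter on low counts and were tested, and 16 (10 SPRR genes and all 6 Lce3 genes) were not. Sprr3, Sprr2k and Sprr2j-ps had 0 counts in all 8 libraries, where 0 counts still allow a level of up to 0.0632 to 0.0956 CPM of the library's total, by library (3 counts, counting error only). The most abundant of the untested members was Lce3c, a gene of the LCE subfamily known for its link to skin repair and psoriasis, with 63 counts in all and at most 16 in 1 library. Sprr2e had 0 counts in every WT library and 1, 1 and 5 counts in NPY-tet 1, NPY-tet 2 and NPY-tet 3, so its groups did not overlap. The levels of NPY-tet 1 and NPY-tet 2 (0.0258 and 0.0271 CPM) lie below what 0 counts still allow, so they cannot be told apart from WT. The share of genes below the filter without overlap was not computed. The 13 untested members with any count were fitted by edgeR without the filter, and 0 of them passed the threshold there. DESeq2 fitted them too, but of these it gave an adjusted p only to Lce3c (0.969). The others could not pass in that fit.

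No member differed between the genotypes past the threshold. By edgeR, 0 of the 30 tested members had an adjusted p under 0.05 (the range was 0.535 to 0.995), against 1 of all 18495 genes, Npy itself (0.00541%). DESeq2 also called 0 members (0.335% of all genes) and limma-voom called 0 (0.0162%). At an unadjusted p under 0.05, 5 members stood out by edgeR (5.98% of all genes): 4 with the higher level in NPY tet/tet skin (Hrnr, Flg, Lce1d and Lce6a, against 2.43% of all genes) and 1 with the lower level (Sprr2a1, against 3.55%). In 4 members the groups did not overlap (3.78% of all genes): all 3 NPY tet/tet libraries lay above all 5 WT libraries for Hrnr, Flg and Lce6a (1.81% of all genes) and below them for Sprr2a1 (1.98%).

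The fitted log2 fold change was above 0 in 25 of the 30 tested members, against 50.7% of all genes, and its median was 0.44 against 0.0041. The members vary together across libraries, so these are not 30 separate observations. By family, the fitted value was above 0 in 15 of 15 LCE genes (median 0.48), in 7 of 7 S100-fused genes (median 0.56) and in 2 of 6 SPRR genes (median -0.28). Without NPY-tet 2 the median over the members was 0.25, and without NPY-tet 3 it was 0.54. The spread between WT mice was large for the members, with a median coefficient of variation of 38.6% against 19.1% over all genes tested.

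**Figure D1:**
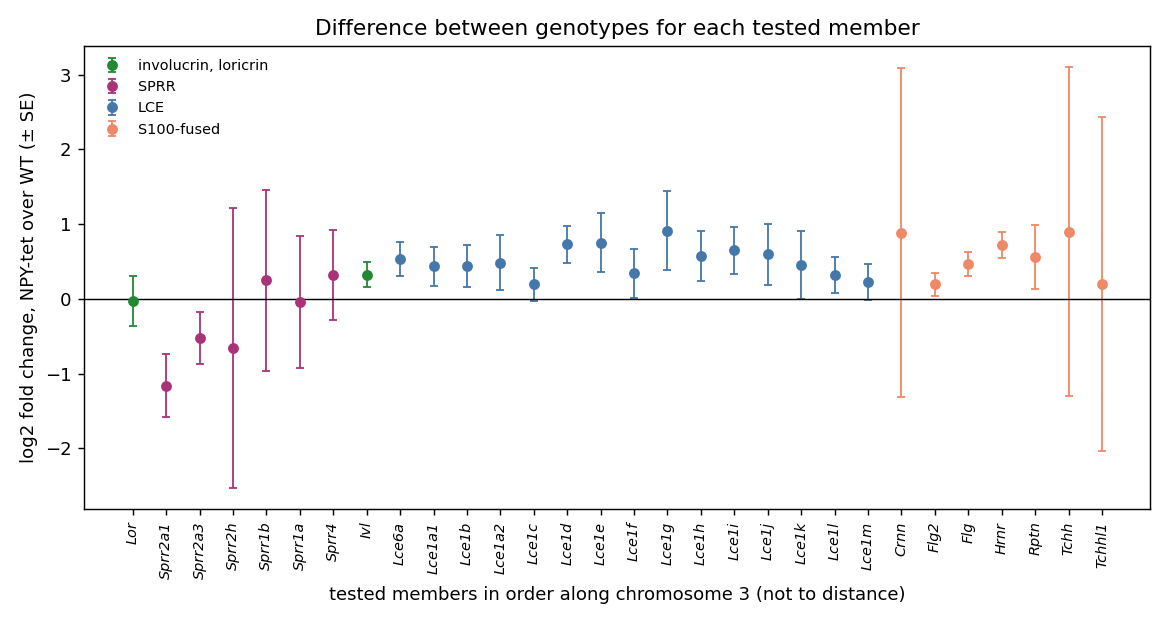
Fitted log2 fold change of NPY tet/tet over WT skin (vertical axis) for each of the 30 tested members in their order along chromosome 3, with bars of 1 standard error and colours for the families. Most points lie above 0, the median is 0.44, and the bars of the trichohyalin and cornulin genes span several units on the log2 scale.

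Among the S100-fused genes, hornerin came closest to the threshold. Hrnr (chromosome 3, 93227056 to 93240877, plus strand, mm39) encodes a filaggrin-like repeat protein of the granular and cornified layers. Its CPM was 37.1, 40.0, 32.8, 38.6 and 26.6 in WT 1 to WT 5, and 67.9, 61.4 and 43.8 in NPY-tet 1 to NPY-tet 3. The groups did not overlap, and the lowest NPY tet/tet library, NPY-tet 3, lay only slightly above the highest WT library. The log2 fold change was 0.72 ± 0.17 (SE), with an adjusted p of 0.535 by edgeR and of 0.0594 by DESeq2. Over all alternatives the adjusted p ran from 0.0488 to 1.00. The lowest came from the 5 rRNA-rich libraries alone (log2 fold change 1.015), where NPY-tet 1 is the only NPY tet/tet library and is assumed to vary like the WT libraries, and among the rRNA-poor libraries the log2 fold change was 0.43.

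Filaggrin is the keratin-bundling protein whose breakdown products keep the horny layer moist. Flg (93180830 to 93200993, plus strand) stood at a CPM of 44.7, 28.4, 28.3, 34.5 and 37.1 in WT, and at 48.0, 50.1 and 44.8 in NPY tet/tet skin. The groups did not overlap, but WT 1 nearly reached the level of NPY-tet 3. The log2 fold change was 0.46 ± 0.16 (SE; adjusted p = 0.743, edgeR), and it was 0.49 over the 5 rRNA-rich libraries and 0.45 over the 3 rRNA-poor ones. With the mean log2 CPM of the inner root sheath keratins as a covariate, a fit chosen after seeing the data, it was 0.27 ± 0.17 (unadjusted p = 0.138, edgeR). In that fit the value of Hrnr rose, to 0.86 ± 0.22 (SE). Flg2, encoding a second filaggrin that is also cleaved in the upper layers, was the steadiest member across mice. Its CPM was 440, 431, 407, 503 and 437 in WT and 575, 429 and 517 in NPY tet/tet skin, and the groups overlapped (log2 fold change 0.19 ± 0.15 SE, adjusted p = 0.821, edgeR).

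**Figure D2:**
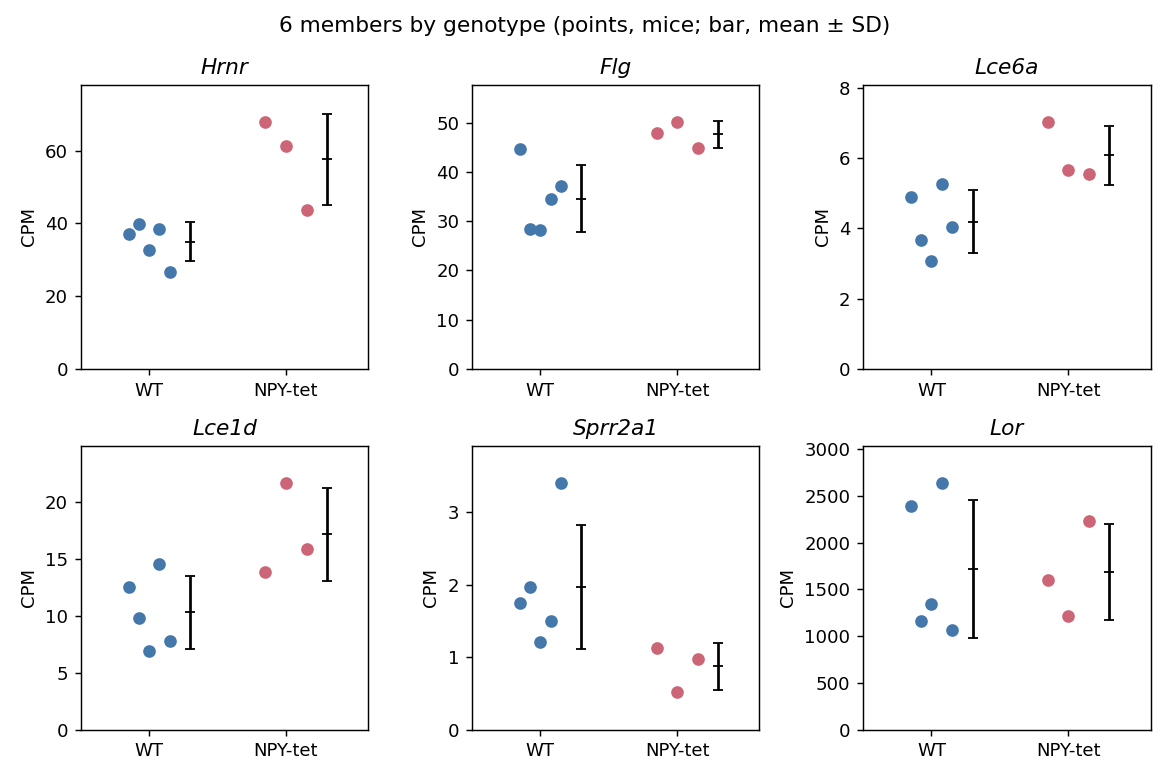
CPM in each library (points, 1 per mouse, with the mean and SD of each group beside them) for 6 members, each panel with its own linear axis from 0. Hrnr, Flg and Lce6a show no overlap between the groups, Sprr2a1 lies lower in all 3 NPY tet/tet libraries, and Lor and Lce1d overlap.

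A group of 9 members shared its 3 highest libraries with the keratins of the hair inner root sheath. The share of all genes tested with the same 3 highest libraries was not computed. Tchh, Tchhl1, Crnn, Rptn, Ivl, Sprr1a, Sprr1b, Sprr2h and Sprr4 all had their 3 highest libraries in WT 5, NPY-tet 1 and NPY-tet 2, the same 3 in which the 6 inner root sheath keratins had their highest summed FPKM. For Ivl this rests on a near tie, since WT 5 stood at 50.8 CPM and WT 2 at 50.3 CPM, and its log2 fold change was 0.32 without and 0.29 with the inner root sheath covariate. Of the 9, trichohyalin, which hardens the inner root sheath, varied most in absolute terms. Tchh (93349637 to 93356384, plus strand) stood at a CPM of 81.9, 4.00, 5.43, 5.82 and 1671 in WT and of 664, 1236 and 79.6 in NPY tet/tet skin. Its highest and lowest libraries were both WT and lay 418-fold apart. Krt71, an inner root sheath keratin that is not a member, stood at 112, 0.253, 1.54, 0.980 and 2088 CPM in WT and at 691, 1317 and 134 CPM in NPY tet/tet skin, in the same pattern.

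The trichohyalin-like gene Tchhl1 stood at a CPM of 1.36, 0.228, 0.201, 0.0800 and 61.6 in WT and of 17.6, 25.3 and 0.548 in NPY tet/tet skin. Cornulin, best known from the stratified lining of the oesophagus and also made in skin, followed it. Crnn stood at a CPM of 3.62, 0, 0.168, 0 and 60.8 in WT and of 24.9, 43.8 and 2.57 in NPY tet/tet skin, so that WT 2 and WT 4 had no count. With this spread the log2 fold changes had wide errors: 0.90 ± 2.20 (SE) for Tchh, 0.20 ± 2.23 for Tchhl1 and 0.89 ± 2.20 for Crnn (adjusted p of 0.944, 0.991 and 0.945 by edgeR). With the mean log2 CPM of the inner root sheath keratins as a covariate, they became 0.080 ± 0.42 for Tchh, -0.56 ± 0.78 for Tchhl1 and 0.087 ± 0.32 for Crnn. The values also depended on the method: limma-voom on the same 8 libraries gave 4.86 for Tchh, 4.25 for Tchhl1 and 6.83 for Crnn (adjusted p of 0.314, 0.357 and 0.290). Without WT 5 the edgeR values became 4.77 for Tchh, 5.03 for Tchhl1 and 4.73 for Crnn.

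**Figure D3:**
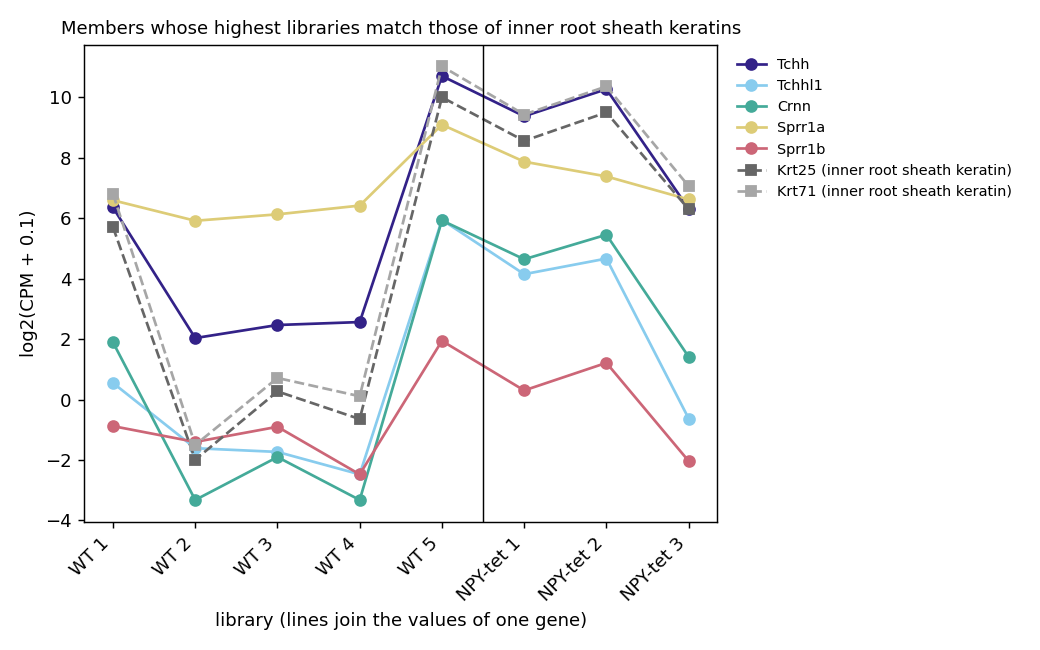
The log2 of CPM plus 0.1 in each of the 8 libraries for 5 members with the inner root sheath pattern (Tchh, Tchhl1, Crnn, Sprr1a and Sprr1b), beside the inner root sheath keratins Krt25 and Krt71, with lines that only join the values of 1 gene. WT 5, NPY-tet 1 and NPY-tet 2 stand at the top for each gene, and Tchh, Tchhl1 and Crnn span the widest range of the 5 members.

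The SPRR genes encode short proline-rich cross-bridges of the envelope. Sprr1a, their main transcript here, stood at a CPM of 96.6, 60.3, 69.9, 85.5 and 547 in WT and of 234, 167 and 98.3 in NPY tet/tet skin. It was thus clearly expressed in every mouse, with WT 5 far above the rest, and the log2 fold change was -0.046 ± 0.88 (SE; adjusted p = 0.995, edgeR). Sprr4 stood at 22.4, 14.1, 13.2, 15.8 and 56.9 CPM in WT and at 49.7, 25.04 and 16.8 CPM in NPY tet/tet skin (log2 fold change 0.32 ± 0.61 SE, adjusted p = 0.926). Sprr1b was far rarer, at 0.0800 to 3.75 CPM in WT and 0.144 to 2.22 CPM in NPY tet/tet skin. Its fitted value of 0.25 passed the threshold only among the 3 rRNA-poor libraries, with 1 WT library (log2 fold change 3.82, adjusted p = 0.0475, edgeR), and was -0.089 among the rRNA-rich libraries. Without WT 5 the log2 fold change was 1.09 for Sprr1a, 1.95 for Sprr1b and 0.90 for Sprr4, and their adjusted p still missed the threshold. With the inner root sheath covariate, a fit chosen after seeing the data, the values went the other way. They were -0.82 ± 0.34 (SE) for Sprr1a, -0.92 ± 0.75 for Sprr1b and -0.38 ± 0.32 for Sprr4 (adjusted p = 0.998 for each, edgeR).

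Of the 12 Sprr2 genes, which keratinocytes switch on in stressed or healing skin, only 3 were tested, and their fitted values were all below 0. Sprr2a1 (92123106 to 92129218, plus strand) stood at a CPM of 1.74, 1.97, 1.21, 1.499 and 3.41 in WT and of 1.13, 0.515 and 0.980 in NPY tet/tet skin. All 3 NPY tet/tet libraries lay below the WT libraries (log2 fold change -1.16 ± 0.42 SE, adjusted p = 0.782, edgeR). Of its 50-base stretches, 96.3% also occur in other genes, above all in Sprr2a2 and Sprr2a3, and its model overlaps Sprr2a2 on the same strand, so the split of counts between these copies is uncertain. Sprr2a3 had a log2 fold change of -0.52 ± 0.35 (SE; adjusted p = 0.808). Sprr2h reached 3.34 CPM in WT 5, stood between 0 and 0.901 CPM in the other 7 libraries, and had a log2 fold change of -0.66 ± 1.87 (SE).

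The scaffold gene Ivl and the bulk component Lor each missed the threshold. Ivl (92478209 to 92481042, minus strand) stood at a CPM of 37.6, 50.3, 45.2, 49.7 and 50.8 in WT and of 72.3, 60.4 and 42.8 in NPY tet/tet skin. NPY-tet 1 and NPY-tet 2 lay above all WT libraries and NPY-tet 3 lay below 4 of them (log2 fold change 0.32 ± 0.17 SE, adjusted p = 0.796, edgeR). Without NPY-tet 1 its log2 fold change was 0.15. Lor (91987578 to 91990449, minus strand) stood at a CPM of 2389, 1159, 1339, 2639 and 1070 in WT and of 1600, 1217 and 2229 in NPY tet/tet skin. The 3 NPY tet/tet libraries lay inside the WT range, and the log2 fold change was -0.032 ± 0.34 (SE; adjusted p = 0.990, edgeR). Rptn, encoding repetin, stood at 4.95, 5.67, 4.53, 5.44 and 12.3 CPM in WT and at 16.4, 7.70 and 5.05 CPM in NPY tet/tet skin (log2 fold change 0.56 ± 0.43 SE, adjusted p = 0.816). WT 5 and NPY-tet 1 were its 2 highest libraries, and without NPY-tet 1 its log2 fold change was -0.043.

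The Lce1 genes, whose products are laid on the envelope late in cornification, showed another pattern. All 14 were tested, their gene models are short (647 to 949 bases), and all 14 had a fitted log2 fold change above 0 (range 0.19 to 0.91, median 0.47). Apart from Lce1m, they share 9.12% (Lce1k) to 27.1% (Lce1i) of their 50-base stretches with other genes, mostly other Lce1 genes. The 14 values are thus not fully separate. The most abundant, Lce1m, stood at a CPM of 370, 272, 244, 502 and 230 in WT and of 331, 380 and 423 in NPY tet/tet skin. The groups overlapped, with WT 4 the highest of the 8 libraries (log2 fold change 0.22 ± 0.25 SE, adjusted p = 0.861, edgeR). Lce1d (92592806 to 92594517, minus strand), the Lce1 gene with the smallest p, stood at 12.6, 9.77, 6.91, 14.6 and 7.79 CPM in WT and at 13.9, 21.7 and 15.9 CPM in NPY tet/tet skin. Only WT 4 reached into the NPY tet/tet range (log2 fold change 0.73 ± 0.25 SE, adjusted p = 0.724, edgeR). Lce6a stood at 4.88, 3.67, 3.08, 5.28 and 4.05 CPM in WT and at 7.03, 5.66 and 5.54 CPM in NPY tet/tet skin, without overlap (log2 fold change 0.53 ± 0.22 SE, adjusted p = 0.795, edgeR). With the inner root sheath covariate, a fit chosen after seeing the data, the values of Lce1m and Lce1d rose to 0.42 ± 0.29 (SE) and 0.82 ± 0.32. The other Lce1 genes also rose, except Lce1g, which fell to 0.64 ± 0.71. Lce6a fell to 0.48 ± 0.29.

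In 10 of the 14 Lce1 genes the 3 highest libraries were WT 4, NPY-tet 2 and NPY-tet 3, which are the rRNA-poor libraries. For this trio too, the share of all genes tested was not computed. The median deviation of the 14 genes from their own mean over libraries was 0.47 on the log2 scale in WT 4, 0.69 in NPY-tet 2 and 0.46 in NPY-tet 3. In the rRNA-rich libraries it was 0.22 in WT 1, -0.17 in WT 2, -0.73 in WT 3, -0.64 in WT 5 and -0.17 in NPY-tet 1. In an edgeR fit with both genotype and library set, the fitted difference of rRNA-poor over rRNA-rich libraries was above 0 in all 14 Lce1 genes, at 0.56 to 1.14 on the log2 scale (median 0.66). At an unadjusted p under 0.05 the difference between sets was positive in 11 of the 14, against 3.17% of all genes, and in 0 of the 16 other tested members. None passed after adjustment over all genes (lowest adjusted p = 0.321, Lce1i), where 9 of 18495 genes (0.0487%) did.

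The genotype difference of the Lce1 genes was smaller once the library sets were held apart. Its median was 0.12 on the log2 scale in the fit with both terms, 0.11 among the rRNA-rich libraries (4 WT and 1 NPY tet/tet) and 0.14 among the rRNA-poor libraries (1 WT and 2 NPY tet/tet). The last 2 fits were chosen after seeing the data. For all tested members the median was 0.31 with both terms, 0.18 among the rRNA-rich and 0.21 among the rRNA-poor libraries. Lce1d had a log2 fold change of 0.60 over the rRNA-rich libraries and of 0.35 over the rRNA-poor ones, and for Lce6a the values were 0.86 and 0.073. Since 2 of 3 NPY tet/tet and 1 of 5 WT libraries are rRNA-poor, genotype and library set are partly mixed, and what sets the rRNA share was not tested.

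**Figure D4:**
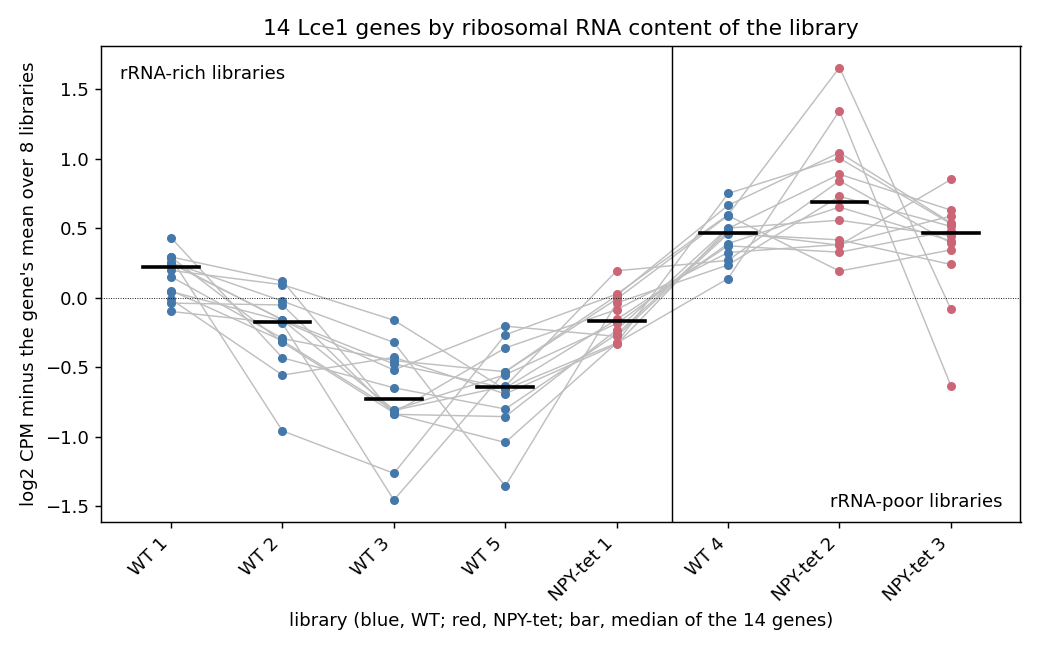
Log2 CPM of the 14 Lce1 genes relative to each gene's mean over the 8 libraries (vertical axis), with libraries grouped as rRNA-rich and rRNA-poor, 1 point per gene and a bar at the median of each library. The medians of the 3 rRNA-poor libraries lie between 0.46 and 0.69, above those of all 5 rRNA-rich libraries.

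Over the tested members the lowest library was a WT library for 28 of the 30 and an NPY tet/tet library for 2, where WT held the lowest library for 61.7% of all genes tested. The highest library was NPY tet/tet for 18 and WT for 12, where NPY tet/tet held the highest for 38.6% of all genes tested. Since the members vary together, a few mice account for many of these extremes. WT 5 was the highest library for 8 of the 30 and the lowest for 10. The highs of WT 5 were SPRR and S100-fused genes and 8 of its lows were LCE genes. NPY-tet 2 was the highest for 10, of which 9 were LCE genes, and WT 3 was the lowest for 12. The ratio of highest to lowest library was above 10, or the lowest library was 0, in 5 of the 30 (Sprr1b, Sprr2h, Tchh, Tchhl1 and Crnn), against 8.09% of all genes.

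**Figure D5:**
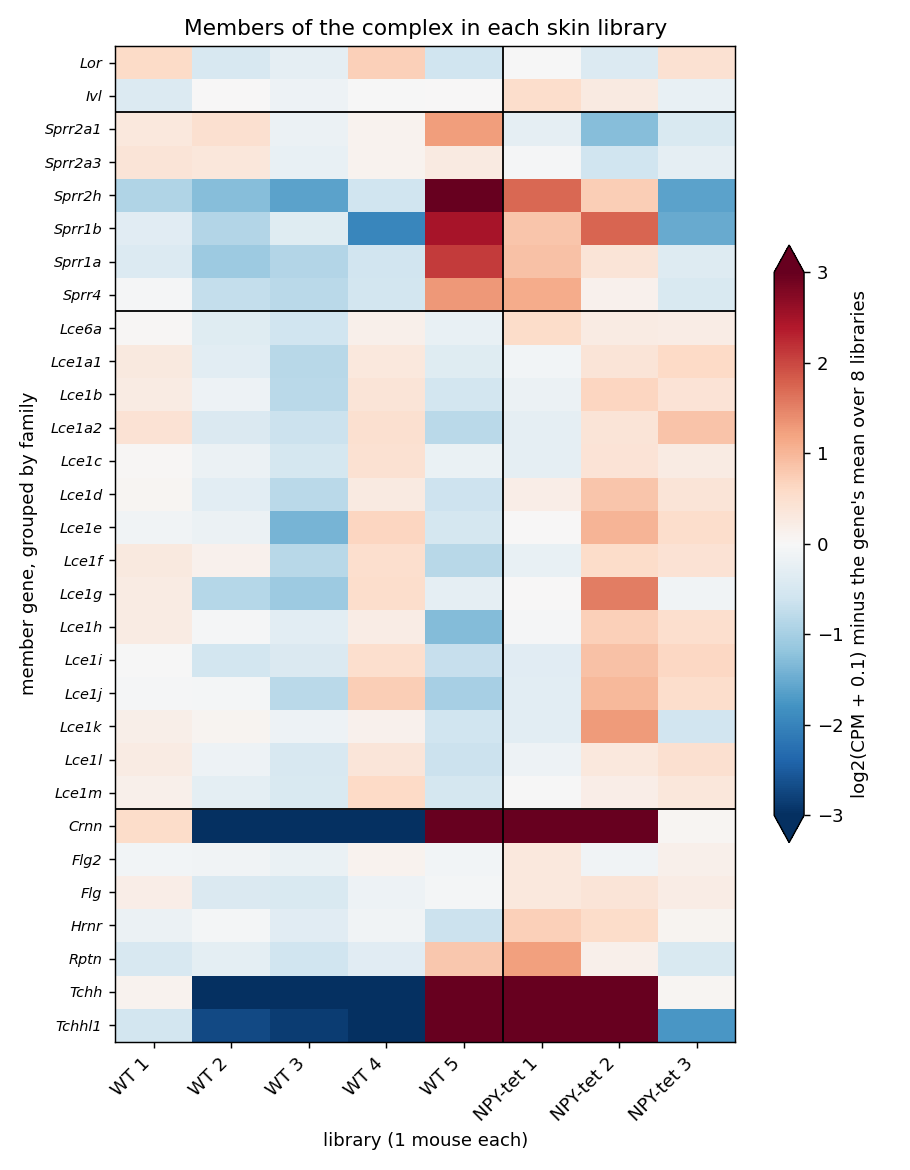
The log2 of CPM plus 0.1 of each tested member relative to its mean over the 8 libraries, with members in rows by family and libraries in columns. The colours saturate beyond 3 log2 units, Tchh, Tchhl1 and Crnn are red in WT 5, NPY-tet 1 and NPY-tet 2, and the Lce1 rows are red in WT 4 and NPY-tet 2 and mostly in NPY-tet 3.

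The other genes of envelope formation were read from lists of their own, and by edgeR 0 genes of any list passed the threshold. Among 3 transglutaminases that cross-link the envelope, the median log2 fold change was 0.21, and Tgm1 stood at 38.6 to 74.4 CPM in WT and 56.6 to 70.0 CPM in NPY tet/tet skin (log2 fold change 0.21 ± 0.21 SE, adjusted p = 0.854). Of 12 tested genes of filaggrin processing and proteases, 8 had a fitted value above 0 (median 0.19), and Asprv1, the aspartic protease that trims profilaggrin, had 0.23 ± 0.21 (SE). Of 12 other tested envelope and granular layer proteins, 8 were above 0 (median 0.062). The 11 suprabasal keratin and desmosome genes had a median of -0.020 with 2 above 0, and Krt10 had -0.20 ± 0.26 (SE). None of these 4 lists held a gene with an unadjusted p under 0.05. In the 8 basal keratinocyte genes the median was 0.16.

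The regulators were also read as lists. Of 19 genes that regulate terminal differentiation, 13 had a fitted value above 0 (median 0.12), and Hopx, a homeodomain protein of differentiating keratinocytes, had an unadjusted p under 0.05. Of 7 AP-1 subunits, 4 had an unadjusted p under 0.05 with the higher level in NPY tet/tet skin (median log2 fold change 0.66). Fos stood at a CPM of 29.1, 20.1, 26.9, 20.5 and 32.2 in WT and of 124, 113 and 45.2 in NPY tet/tet skin, without overlap (log2 fold change 1.87 ± 0.30 SE, adjusted p = 0.298 by edgeR and 2.32e-07 by DESeq2). Among the printed promoters, those of Ivl, Lor, Crnn and Sprr1a held an AP-1 match. Of the promoters not printed, those of Flg, Flg2, Rptn, Tchhl1, Sprr1b and several Sprr2 genes also held one. The genotype values of those members are given above where they were tested. Any tie between the AP-1 subunits and these members was not tested.

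S100 genes lie in the same complex outside the member list, and 2 of 12 tested had an unadjusted p under 0.05 in each direction. S100a1, a calcium sensor, stood at 68.5 to 96.1 CPM in WT and at 47.9 to 62.3 CPM in NPY tet/tet skin, without overlap (log2 fold change -0.52 ± 0.15 SE, adjusted p = 0.643, edgeR). S100a9, an alarm protein of neutrophils and stressed keratinocytes, stood at 0.340 to 1.04 CPM in WT and at 5.15, 1.33 and 0.692 CPM in NPY tet/tet skin (log2 fold change 2.04 ± 0.59 SE, adjusted p = 0.623, edgeR). Without NPY-tet 1 the log2 fold change of S100a9 was 0.81. Among 11 tested stress keratins and alarm genes, 10 had a fitted value above 0 (median 0.60). By edgeR, 5 of the 11 had an unadjusted p under 0.05, all with the higher level in NPY tet/tet skin (2.43% of all genes). Il36g is an epidermal cytokine of the interleukin 1 family. It stood at 8.85 to 12.1 CPM in WT and at 13.03 to 16.9 CPM in NPY tet/tet skin, without overlap (log2 fold change 0.60 ± 0.16 SE, adjusted p = 0.583, edgeR).

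Markers of other skin compartments were listed beside the members. White adipocyte genes had fitted values below 0 in 7 of 7 (median -0.67), with a summed FPKM of 2658 to 4835 in WT and 1539 to 3799 in NPY tet/tet skin. By edgeR, 3 of these 7 had an unadjusted p under 0.05 with the lower level in NPY tet/tet skin (3.55% of all genes). Hair shaft genes were above 0 in 10 of 10 (median 0.83), with a summed FPKM of 1.53 to 445 in WT and 27.8 to 361 in NPY tet/tet skin. Skeletal muscle genes were below 0 in 6 of 7 (median -0.25), and fibroblast genes in 5 of 7 (median -0.026). Sebaceous gland genes were above 0 in 4 of 7 (median 0.59), with an unadjusted p under 0.05 for 3 that were higher and 1 that was lower in NPY tet/tet skin. Their summed FPKM ran the other way, at 630 to 1196 in WT and 469 to 835 in NPY tet/tet skin. Mucosal keratins had a summed FPKM of 3.50 to 8.34 in WT and 3.68 to 8.25 in NPY tet/tet skin. How far the make-up of each skin piece enters the members' values was not tested beyond the covariate fits given above.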

How the data were processed

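Poly-A RNA of whole skin was sequenced from non-directional libraries, per the labels' protocols. The deposited file holds raw read counts and FPKM per gene for each of 8 samples, per the file headers. The submitters' processing notes name the mm39 build and, without roles or order, featureCounts (1.5.0-p3), HISAT2 (2.0.5), CASAVA and DESeq2 (1.20.0); the annotation release and the treatment of multi-mapping reads are not given in the sources used here. The authors' FPKM values were used to compare levels between genes and in 2 alternative fits; all other values came from the counts. Columns were matched to samples by name, and 0 sample columns were left unused. The descriptions of samples 3 to 8 carry a mouse number that is 1 higher than their titles; the titles were used.

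Counts were tested in R 4.3.3 with edgeR 4.0.16 (quasi-likelihood F-test, TMM, filterByExpr, 2-sided, genotype only), p-values were adjusted over the 18495 genes tested, and the threshold was 0.05. Printed CPM are TMM-scaled. Libraries were called rRNA-rich where ribosomal RNA genes, the mitochondrial ones included, took over 1% of counts. The common biological coefficient of variation was 0.318. Counts were simulated for the same 18495 genes and libraries, with the same common biological variation set for every gene. On these counts the edgeR fit recovered 2% of genes planted at 1.5-fold, 20% at 2-fold, 92% at 4-fold and 100% at 8-fold, with 6 false calls among 113. Recovery at each gene's own spread between mice was not tested, for the members or for other genes. The members' median coefficient of variation over WT was 38.6%, against 19.1% over all genes tested. Alternatives used DESeq2 1.42.0, limma 3.58.1, other filters and scalings, covariates, a replicate block and each library left out. A covariate for inner root sheath keratins and fits within each rRNA set were added after seeing the data. Of the 16 member genes under the filter, 13 entered only alternative fits (all 13 entered DESeq2 and edgeR without the filter), and 3 had no counts.

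The members and the gene lists were chosen with earlier results of these data known. Named genes were Npy, each member outside the Sprr and Lce families, the most abundant and the smallest-p member of each subfamily, and each member without overlap. The rule also named up to 3 genes per list, of which only some are printed, picked after their values were seen. The list symbols Kplce and Krt85 had no row. Genes that share 50-base stretches were found in GENCODE transcripts of GRCm38, and promoters are RefSeq's, of GRCm38.p6. The p-values measure the spread between these mice only.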

Additional observations from a re-analysis of the deposited data

Results flagged for a closer look

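In 8 of the 30 tested members the CPM of WT 5 stood far from the other 4 WT libraries. The measure is the gap between the highest library and the next one, as a share of the whole WT range, and the critical value for 5 samples is 0.71. It was computed for the members only, so no share over all genes can be set beside the 8. The share was 0.953 for Tchh (1671 against 81.9 CPM in the next library), 0.979 for Tchhl1 (61.6 against 1.36 CPM) and 0.941 for Crnn (60.8 against 3.62 CPM). For the SPRR genes it was 0.926 for Sprr1a (547 against 96.6 CPM), 0.901 for Sprr1b (3.75 against 0.444 CPM), 0.970 for Sprr2h (3.34 against 0.09995 CPM) and 0.789 for Sprr4 (56.9 against 22.4 CPM). For Rptn it was 0.853 (12.3 against 5.67 CPM). For normally distributed values, chance alone gives such a gap in about 1 in 20 groups. The measure was taken on CPM without a log scale, which are skewed for these genes, so the chance rate here is not known. These genes also vary together, so the 8 are not separate cases. All 8 belong to the 9 members whose 3 highest libraries were WT 5, NPY-tet 1 and NPY-tet 2. The groups of 3 NPY tet/tet libraries were too small for this measure.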

How the results depend on the processing

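Depth limits the rare members: the 16 untested ones had at most 16 counts in a library. The simulated fit, with the same variation set for every gene, recovered few 2-fold changes at this group size. With 3 NPY tet/tet mice, single libraries moved several values.

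The number of genes past the threshold, 1 in the edgeR fit, was 21 without the filter on low counts, 64 with DESeq2, 3 with limma-voom, 2 with limma on FPKM at either pseudocount (1 or 0.1), 11 with the rRNA set as covariate, 332 among the rRNA-rich and 227 among the rRNA-poor libraries, and 1 to 8 with 1 library left out (8 without NPY-tet 3). Members past the threshold numbered 0 under every setting except 1 (Hrnr) among the rRNA-rich and 1 (Sprr1b) among the rRNA-poor libraries. With 1 library left out, 4 to 10 members had no overlap between the groups. The 10 came without NPY-tet 1, with 8 higher and 2 lower among 31 tested, where 6.78% of all genes had none. The median over the members stayed between 0.25 and 0.54 and that over the Lce1 genes between 0.27 and 0.73 when 1 library was left out.

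Replicate numbers were shared by the genotypes. The deviations of same-numbered samples had correlations of -0.04, -0.11 and 0.30, and those of other pairs ran from -0.45 to 0.35. So few pairs cannot settle whether the numbers pair the mice, and the main fit treated the mice as unpaired. With the replicate block 2 genes and 0 members passed, the median over the members was 0.61, Tchh, Tchhl1 and Crnn had 4.77, 4.47 and 4.74, and the values of Lor (0.075), Sprr1a (1.08) and Sprr2h (3.72) changed sign.

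Of 657 alternatives for 30 named genes, 600 kept direction and side of the threshold, 9 newly passed it and 48 changed sign, 17 of them with a library left out; no reversed value passed. The sign changed for Lor (0.16), Tchhl1 (-0.56), Sprr1b (-0.92), Sprr4 (-0.38), Tgm1 (-0.058) and Krt10 (0.055) with the inner root sheath covariate, and for Lor (0.27) and Sprr4 (-0.10) with the suprabasal keratin covariate. It changed for Lor (0.027 at both pseudocounts), Sprr1a (0.46 at both) and Sprr2h (0.025 and 0.52 at pseudocounts 1 and 0.1) with limma on FPKM, and for Sprr1a (0.69) and Sprr2h (1.63) with limma-voom. With the rRNA set as covariate it changed for Lce1m (-0.0089), Sprr1a (0.44) and Sprr2h (0.44). Among the rRNA-poor libraries it changed for Flg2 (-0.10), Lce1m (-0.33), Sprr1a (0.62), Sprr2h (0.99) and Asprv1 (-0.20), and among the rRNA-rich for Lor (0.12), Sprr1a (0.29), Sprr1b (-0.089) and Sprr2h (0.10). With 1 library left out, the sign changed within ranges of -0.28 to 0.18 for Lor, -0.043 to 0.92 for Rptn, -0.49 to 5.03 for Tchhl1, -0.38 to 1.09 for Sprr1a, -0.63 to 1.95 for Sprr1b, -0.22 to 0.90 for Sprr4, -0.43 to 0.0067 for Krt10 and -0.11 to 4.64 for Krt71. The cause was not tested.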
